A study of Mus musculus with 622 samples.

Results

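Ppy, Pyy and Npy encode pancreatic polypeptide, peptide YY and neuropeptide Y, the hormones and transmitters of the pancreatic polypeptide fold family. These 3 genes were chosen by family membership from the 44448 genes measured, and their RNA is described across single cells of mouse pancreatic islets. The mice were wild-type C57BL/6. Islet cells were captured singly on a Fluidigm C1 microfluidic chip, where their cDNA was amplified, and each of the 622 cells gave 1 library. Cells with at least 1000 genes at 1 RPKM (reads corrected for gene length and for each library's depth) were kept, which left 593. A cell was single-hormone when pancreatic polypeptide (Ppy), somatostatin (Sst), glucagon (Gcg) or insulin (Ins1 plus Ins2) RNA made up at least 90% of their sum, and dual-hormone otherwise, named by its 2 highest hormones. The 141 dual-hormone cells held pancreatic polypeptide with somatostatin in 16, glucagon with pancreatic polypeptide in 8, insulin with pancreatic polypeptide in 23, insulin with somatostatin in 28, glucagon with insulin in 65 and glucagon with somatostatin in 1. The 452 single-hormone cells were 11 with pancreatic polypeptide only, 13 with somatostatin only, 33 with glucagon only and 395 with insulin only. Whether a dual-hormone cell is 1 cell or a pair captured together was not tested. The labels give a single group with no animal, age or chip, so all cells count as 1 sample, no test was made, and intervals cover counting error only.

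The 3 peptides fold back on themselves into a hairpin and end in an amidated tail that their receptors recognise. Pancreatic polypeptide is the hormone of the islet PP cell and acts mainly at the receptor encoded by Npy4r. Peptide YY is best known from the endocrine L cells of the gut but is also made in the islet, and neuropeptide Y is foremost a transmitter of neurons, including sympathetic fibres that reach the islet. In beta cells, receptors of this family lower cyclic AMP through Gi/o proteins and restrain insulin release.

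The coding stretch of each mature peptide is shown because it tells how far reads of one member could be mistaken for another. The stretch is the 36 codons just before the amidation and cleavage site, from GENCODE vM21 transcripts on GRCm38, written 5′ to 3′, with capitals for bases that are the same in all 3 genes. Each stretch starts in coding exon 1 and ends in coding exon 2, at chr11:102100280-102100624 (minus strand) for Ppy, chr11:102107053-102107268 (minus) for Pyy and chr6:49823682-49827492 (plus) for Npy.
Ppy: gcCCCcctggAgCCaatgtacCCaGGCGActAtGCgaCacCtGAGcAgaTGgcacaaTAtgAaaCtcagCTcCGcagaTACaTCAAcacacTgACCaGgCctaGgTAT
Pyy: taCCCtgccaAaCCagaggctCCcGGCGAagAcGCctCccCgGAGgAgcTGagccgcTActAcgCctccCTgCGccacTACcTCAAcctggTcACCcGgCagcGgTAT
Npy: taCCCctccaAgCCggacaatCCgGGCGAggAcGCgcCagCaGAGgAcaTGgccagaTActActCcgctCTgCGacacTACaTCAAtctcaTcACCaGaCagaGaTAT
Of the 108 aligned bases, 49 were the same in all 3 genes, a share of 45.4%. Pyy and Npy were the most alike, with 70.4% identical bases, followed by Ppy and Npy with 56.5% and Ppy and Pyy with 53.7%. The longest run shared by any pair of the whole transcripts on the same strand was 10 bases, so a longer exact match tells the members apart.

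Ppy lies on chromosome 11 at 102099931 to 102101319 and Pyy on the same chromosome at 102106676 to 102107832 (GRCm38), both on the minus strand and 5357 bases apart. Npy lies on chromosome 6 at 49822710 to 49829507 on the plus strand. No annotated gene of the RefSeq table overlaps any of them. The 250 bases before the start of the neighbouring Ppy and Pyy genes are shown because both were abundant in pancreatic polypeptide-only cells (RefSeq, GRCm38, chr11:102101320-102101569 and chr11:102107833-102108082, minus strand). Capitals mark the letters TATAA, the core of a TATA box.
Ppy: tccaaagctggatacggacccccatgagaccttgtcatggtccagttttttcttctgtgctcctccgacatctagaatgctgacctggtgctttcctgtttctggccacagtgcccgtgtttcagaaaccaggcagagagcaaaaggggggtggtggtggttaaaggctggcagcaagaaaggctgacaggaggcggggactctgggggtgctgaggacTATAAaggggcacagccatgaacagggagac
Pyy: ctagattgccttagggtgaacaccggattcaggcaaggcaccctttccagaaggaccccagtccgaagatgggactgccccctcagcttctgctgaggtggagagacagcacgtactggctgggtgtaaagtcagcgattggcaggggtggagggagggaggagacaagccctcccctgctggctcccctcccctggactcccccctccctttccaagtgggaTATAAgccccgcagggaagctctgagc
TATAA stands 31 bases before the Ppy start and 27 bases before the Pyy start, on the gene's own strand, and was not found in the matching window of Npy. Of 32851 promoter windows, 22.8% held it on either strand, and 4.93% held it on the gene's strand within the last 50 bases. The homeodomain core TAAT was in none of the 3 windows on either strand and in 54.9% of all windows. The E-box letters CANNTG were in the Pyy window only and in 66.2% of all windows. TGACG, the core of a cyclic AMP response element, was in none of the 3 and in 17.8% of all. These matches describe letters and say nothing of binding.

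Mapped reads, recovered from the RPKM values, numbered 1119226 at the median, with a lowest cell of 2461 and a highest of 4788787. By number format, 359 cells carried full-precision values and 263 carried values with 4 decimals (rounded), a technical split that the labels do not mention, with median depths of 811202 and 1607351 reads. Main values are also given within each set. Among cells with only pancreatic polypeptide, the PP markers Etv1 and Meis2 reached 1 RPKM in 7 and 8 of 11 cells, but Aqp3 and Id4 were below 1 RPKM in all. Etv1 also reached 1 RPKM in 10 of 13 somatostatin-only, 31 of 33 glucagon-only and 110 of 395 insulin-only cells. Meis2 did so in 9, 24 and 301 cells of these groups, so neither gene was particular to pancreatic polypeptide-only cells. Among delta cell markers, somatostatin-only cells held Rbp4 in 13 of 13, Hhex in 11, Ghsr in 6 and Lepr in 0. Rbp4 was also in 31 of 33 glucagon-only cells, where Hhex was in 2 and Ghsr in 0. Among alpha cell markers, glucagon-only cells held Ttr in 33 of 33, Gria3 in 26, Irx2 in 19, Slc38a5 in 17, Irx1 in 16 and Loxl4 in 0. Markers of other cell types were present in some cells of each group. At least 5 of 9 immune, 3 of 6 endothelial or 3 of 6 stellate cell markers reached 1 RPKM in 27 cells, 18 of them insulin-only, and these are called cells with immune, endothelial or stellate markers. They were not free of islet hormone RNA, with a median of 115036 RPKM summed over the grouping hormones. Of the 11 pancreatic polypeptide-only cells, 1 met the immune and 1 the stellate threshold, and 4 held at least 3 of 5 ductal, 1 at least 3 of 6 acinar and 1 at least 3 of 5 glial markers. The ductal threshold was met by 82 cells, 43 of them insulin-only, and these cells were not set apart in any comparison.

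Pyy was among the most abundant RNAs of pancreatic polypeptide-only and somatostatin-only cells, less so in glucagon-only cells, and near the floor in most insulin-only cells. Pyy was not used to group the cells, so its levels are not fixed by the rule. Pyy ran from 3226 to 143619 RPKM in the 11 pancreatic polypeptide-only cells, with a median of 65914. The 13 somatostatin-only cells had a median of 56792 RPKM, with a lowest of 11499 and a highest of 135484. The 33 glucagon-only cells had a median of 5807 RPKM and ran from 11.6 to 64310. In the 395 insulin-only cells the median was 10.8 RPKM, the quartiles were 4.16 and 34.0, and the range was 0 to 31492. The column sets differed in some of these medians. In the full-precision and the rounded columns, median Pyy was 30494 and 132636 RPKM in pancreatic polypeptide-only cells, 47168 and 56792 in somatostatin-only cells and 10849 and 3228 in glucagon-only cells, against 12.8 and 8.02 in insulin-only cells. The pancreatic polypeptide-only and somatostatin-only cells overlapped over most of their ranges and cannot be ordered. Of the insulin-only cells, 11 exceeded the lowest pancreatic polypeptide-only cell and 6 exceeded the lowest somatostatin-only cell. Against the lowest glucagon-only cell the overlap was far wider, at 189 of 395 insulin-only cells.

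By group means, Pyy was 71193 RPKM in pancreatic polypeptide-only cells and 461 in insulin-only cells, a log2 ratio of 7.27 after adding 1 RPKM to each mean. Within full-precision columns the ratio was 6.29, and within rounded columns 8.02. For somatostatin-only cells the mean was 53973 RPKM and the log2 ratio over insulin-only cells was 6.87, with 6.88 and 6.90 in the column sets. For glucagon-only cells the mean was 10753 RPKM and the log2 ratio was 4.54, with 4.93 and 3.90. A gene counted as past the threshold at a 4-fold difference of means, among genes whose mean reached 1 RPKM in one group or both. Pyy passed it upward in all 3 comparisons, where 5.36%, 7.09% and 2.4% of all genes tested did so for pancreatic polypeptide-only, somatostatin-only and glucagon-only cells. Npy was listed at 0 in the first 2 of these groups and was past 4-fold lower in glucagon-only cells, beside 10.5%, 9.14% and 4.63% of all genes past 4-fold lower. The median log2 ratio of all genes tested was -0.39, -0.11 and -0.20 in the same order.

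**Figure D1:**
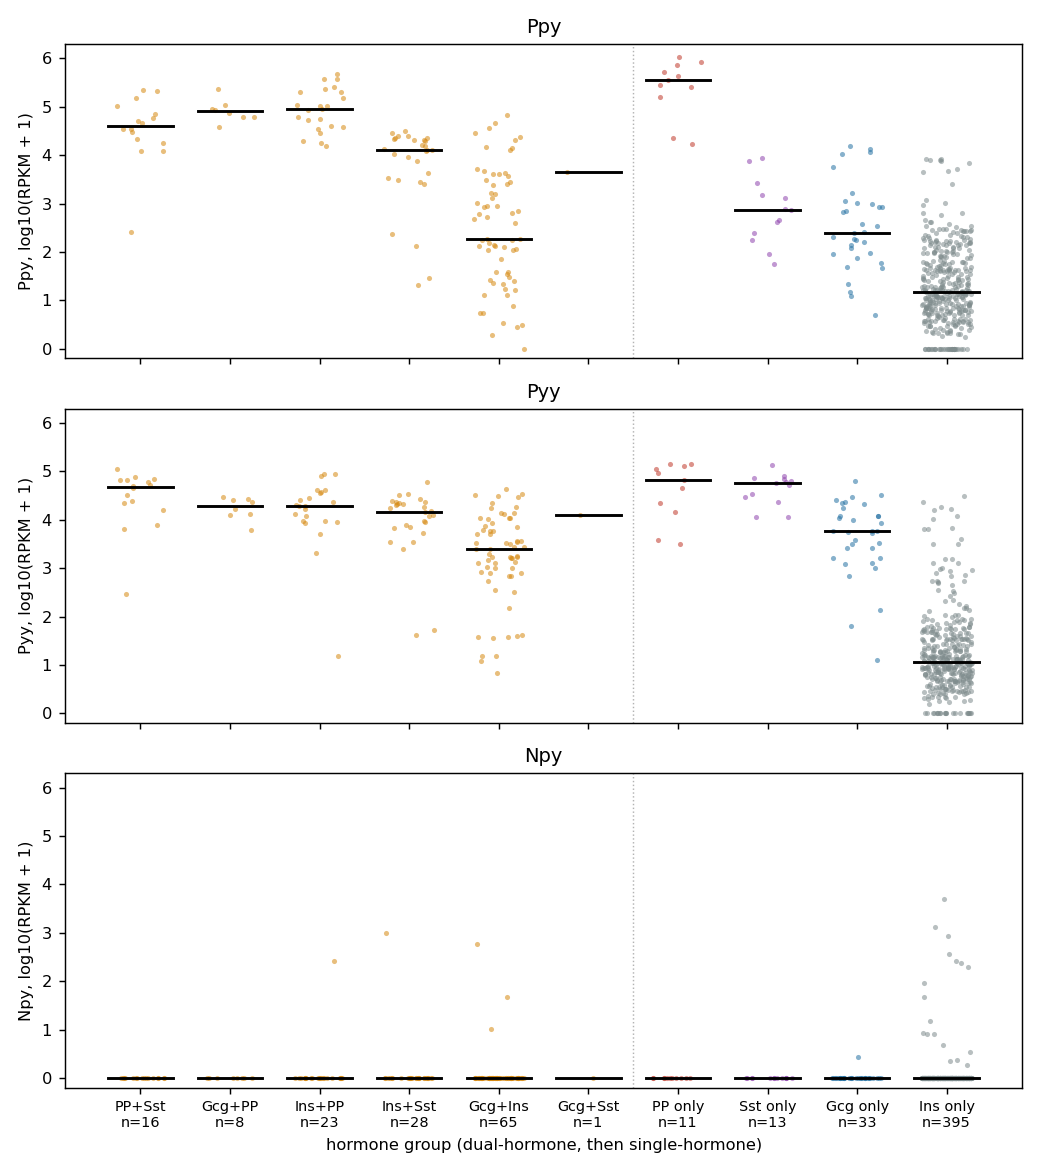
Each point is 1 cell, with log10(RPKM + 1) of Ppy, Pyy or Npy on the vertical axis and hormone groups along the horizontal axis, and the black line is the group median. Pyy has medians of 65914 RPKM in pancreatic polypeptide-only cells and 56792 in somatostatin-only cells, against 10.8 in insulin-only cells, and Npy lies at 0 in all but 24 cells.

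The rank of Pyy within each cell tells how much of the cell's message it was, on a per-length scale. Pyy was the second most abundant RNA at the median of pancreatic polypeptide-only cells (rank 2) and within the top 10 in 10 of 11. In somatostatin-only cells its median rank was 3, it was in the top 10 in 13 of 13, and in at least 1 cell it ranked 1. In glucagon-only cells the median rank was 11 and 15 of 33 cells had it in the top 10, against a median rank of 2482 in insulin-only cells. Pyy made up a median of 8.02% of the summed RPKM of a pancreatic polypeptide-only cell, 8.56% of a somatostatin-only cell and 0.858% of a glucagon-only cell, against 0.00132% of an insulin-only cell.

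Pyy stayed below Ppy in pancreatic polypeptide-only cells and exceeded it in somatostatin-only and nearly all glucagon-only cells. Because Ppy is one of the grouping hormones, its levels and the ratio of Pyy to it are a description. Ppy had a median of 358342 RPKM (16991 to 1051195) in pancreatic polypeptide-only cells and was the most abundant RNA in 11 of 11. The median was 736 RPKM (55.4 to 8606) in somatostatin-only cells and 241 (4.01 to 15782) in glucagon-only cells, against 13.6 (0 to 8508) in insulin-only cells. By column set, full-precision and then rounded, median Ppy was 307935 and 718032 RPKM in pancreatic polypeptide-only cells, 1979 and 420 in somatostatin-only cells and 698 and 221 in glucagon-only cells, against 13.9 and 13.5 in insulin-only cells. Pyy was below Ppy in 11 of 11 pancreatic polypeptide-only cells, with a median log2 ratio of Pyy to Ppy of -2.45. Pyy was above Ppy in 13 of 13 somatostatin-only cells, with a median log2 ratio of 5.97, and in 32 of 33 glucagon-only cells, with 3.69. In insulin-only cells the ratio had a median of -0.58 and Pyy was the higher in 161 of 395. The rule keeps Ppy high in pancreatic polypeptide-only cells and low in the other single-hormone groups, so it shapes the sign of this ratio. By column set, under the same rule, the medians were -2.46 and -2.35, 4.78 and 7.36, 3.69 and 3.48, and -0.68 and -0.58.

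**Figure D2:**
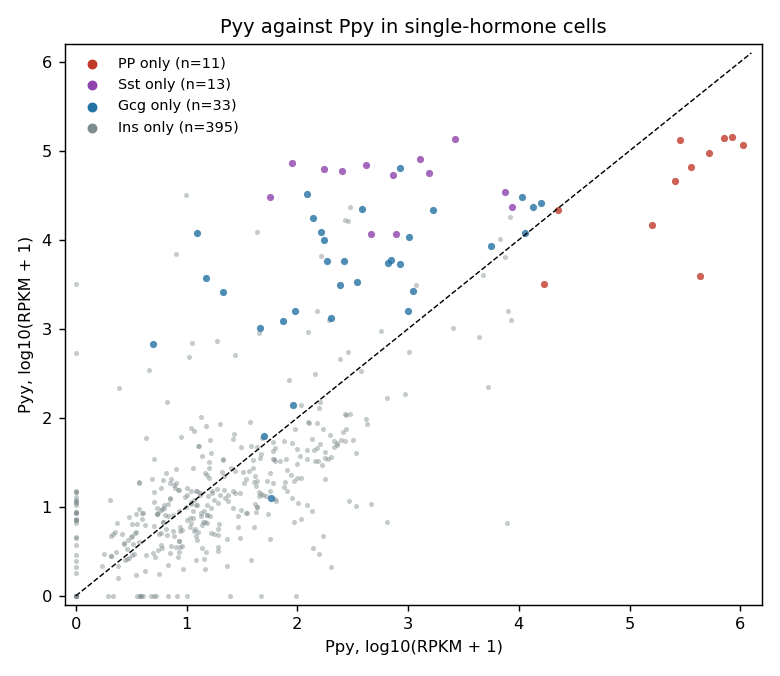
Each point is 1 single-hormone cell, with log10(RPKM + 1) of Ppy on the horizontal axis, of Pyy on the vertical axis and the dashed line at equal values. All 13 somatostatin-only cells lie above the line, all 11 pancreatic polypeptide-only cells lie below it, and insulin-only cells spread along it near the origin.

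Within each group, the correlation of the neighbouring genes Pyy and Ppy is a description, and the groups are not ordered by it. The rule bounds Ppy differently in each group, and the smallest groups held only 11 and 13 cells. Pearson's r of log2(RPKM + 1) between Pyy and Ppy was 0.66 over the 11 pancreatic polypeptide-only cells, -0.06 over the 13 somatostatin-only cells and 0.51 over the 33 glucagon-only cells, against 0.59 over the 395 insulin-only cells. The points are cells that share a sample and differ in depth. Pyy followed mapped reads with r of 0.09, 0.21 and -0.11 in the first 3 groups and -0.23 in insulin-only cells. With its group's own hormone, Pyy had r of 0.53 in somatostatin-only cells and 0.22 in glucagon-only cells, against -0.05 in insulin-only cells. By rank (Spearman's rho) the values were 0.23, 0.20 and -0.08, so the first 2 groups hardly differed.

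Dual-hormone cells that held pancreatic polypeptide or somatostatin were rich in Pyy. Pyy had a median of 48043 RPKM (290 to 113694) in the 16 cells with pancreatic polypeptide and somatostatin and 20011 (6115 to 29863) in the 8 with glucagon and pancreatic polypeptide. The median was 19217 RPKM (14.7 to 90427) in the 23 cells with insulin and pancreatic polypeptide and 14584 (41.3 to 61045) in the 28 with insulin and somatostatin. The 65 cells with glucagon and insulin had the lowest median of the pairs with several cells, at 2438 RPKM (5.86 to 43393), and the 1 cell with glucagon and somatostatin had 12876. These medians lie between those of the 2 single-hormone groups named by each pair, except that cells with pancreatic polypeptide and somatostatin lay below both of theirs, by less than the spread within either group. The ranges include 6 dual-hormone cells with under 10000 RPKM summed over the grouping hormones. They were 1 with pancreatic polypeptide and somatostatin, 2 with insulin and somatostatin and 3 with glucagon and insulin. The lowest sums in these pairs were 1044, 1377 and 586 RPKM.

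By median Pyy, the order of groups had no clear steps above insulin-only cells. It placed pancreatic polypeptide-only, somatostatin-only and pancreatic polypeptide with somatostatin cells at the top, with overlapping quartiles. The quartiles were 18380 and 123959, 29970 and 69017, and 20639 and 66682 RPKM in that order. Next came the 3 pairs from glucagon with pancreatic polypeptide to insulin with somatostatin, whose quartiles also overlapped each other. Their upper quartiles (25791, 36898 and 22478 RPKM) lay above the lower quartile of pancreatic polypeptide-only cells. Glucagon-only cells (1605 and 12143 RPKM) and cells with glucagon and insulin (803 and 7405) overlapped too, and the upper quartile of glucagon-only cells lay above the lower quartiles of insulin with pancreatic polypeptide (9446) and insulin with somatostatin (7028) cells. Insulin-only cells lay below all of these by their quartiles.

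The balance of Pyy to Ppy in dual cells is a description. Ppy is one of the hormones that name the pairs, so differences between pairs are partly set by the rule. The median log2 ratio of Pyy to Ppy was -0.52 in cells with pancreatic polypeptide and somatostatin, -2.26 with glucagon and pancreatic polypeptide and -2.24 with insulin and pancreatic polypeptide. It was -0.01 with insulin and somatostatin and 1.96 with glucagon and insulin. In somatostatin with insulin cells the median Ppy was 12892 RPKM, against 736 in somatostatin-only cells, and 4 of the 28 held a further hormone at 10% or more of the sum. With pancreatic polypeptide and somatostatin, the ratio was 0.53 in the 6 full-precision cells and -0.80 in the 10 rounded ones, and with glucagon and insulin 2.63 and -0.04. At the 90% boundary, the 6 cells within 2 percentage points inside it had a median Pyy of 13920 RPKM (266 to 18212) and the 8 within 2 points outside had 6704 (36.1 to 23330).

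Insulin-only cells with much Pyy were few, and most held RNA of another hormone too. Of the 395 cells, 367 had Pyy at 1 RPKM or more, 207 at 10 or more, 46 at 100 or more and 18 at 1000 or more. In the 18 cells at 1000 RPKM or more, the median Ppy was 290 RPKM and the median Sst 606, against 5.75 and 20.7 in the 188 cells with Pyy under 10. Another of the hormones Ppy, Sst and Gcg reached 1000 RPKM in 15 of these 18 cells and in 1 of the 188. Insulin was still 95.8% of their summed hormone RNA at the median, against 100.0% in the 188 cells with little Pyy. Of 12 insulin-only cells with Ppy at 1000 RPKM or more, 8 also had Pyy at 1000 or more.

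Ppy and Pyy reached 1 RPKM in most insulin-only cells, largely at low levels. Ppy reached 1 RPKM in 359 of 395 insulin-only cells, 90.9% (exact Clopper-Pearson 95% interval 87.6 to 93.5), and Pyy in 92.9% (89.9 to 95.2). The other trace hormones were as widespread, with Gcg at 1 RPKM in 377 and Sst in 368 of the 395. In the 17 cells with at least 5 of 9 immune markers, Ppy reached 1 RPKM in 17 and Pyy in 16, with medians of 29.2 and 14.2 RPKM. Their median depth was 982942 reads, against 1130401 in insulin-only cells. These cells are no hormone-free comparison, since 12 of the 17 belong to the insulin-only group and their Ppy reached 284405 RPKM. The 18 insulin-only cells with immune, endothelial or stellate markers had Ppy in 16 and Pyy in 17, with medians of 11.8 and 7.57 RPKM. Whether the low values are RNA of the cell itself or came from outside it was not tested, and the shares are not read as expression. With each cell thinned to 250000 reads, Ppy had at least 1 read in 266 of 391 insulin-only cells (68.0%) and Pyy in 274 (70.1%).

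**Figure D3:**
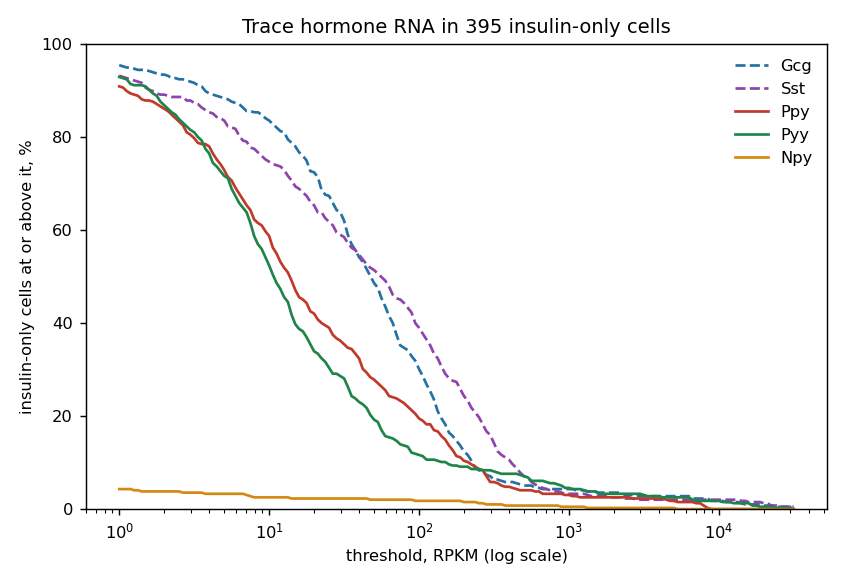
The vertical axis gives the percent of the 395 insulin-only cells at or above each RPKM threshold on the horizontal log axis, for Gcg, Sst, Ppy, Pyy and Npy. Ppy and Pyy start at 90.9% and 92.9% at 1 RPKM and fall to 77 and 46 cells at 100 RPKM, while Npy never passes 4.30%.

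Npy RNA was rare. Of the 23 cells with Npy at 1 RPKM or more, 17 were insulin-only, as were 395 of all 593 cells kept. Npy was 0 in all 11 pancreatic polypeptide-only cells and all 13 somatostatin-only cells, counts that allow shares of up to 27.3% and 23.1%. It was also 0 in the 16 cells with pancreatic polypeptide and somatostatin and the 8 with glucagon and pancreatic polypeptide. Of 33 glucagon-only cells, 1 had Npy, at 1.72 RPKM from 1 read. Among insulin-only cells 17 of 395 had Npy at 1 RPKM or more, 4.30% (2.53 to 6.80), with 10 at 10 RPKM or more and 7 at 100 or more. The intervals of the small groups include the insulin-only share, so a difference in share was not detectable with these numbers of cells. Of the 27 cells with immune, endothelial or stellate markers, 1 had Npy (3.70%, interval 0.0937 to 19.0), at 9.30 RPKM.

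The highest Npy value was 5015 RPKM, from 2294 reads in an insulin-only cell where it ranked 11 among all genes. The next were 1302 RPKM in an insulin-only cell and 977 in a cell with insulin and somatostatin. At the low end, 4 insulin-only cells had Npy from 1 read each. Of the dual cells, Npy was present in 1 of 23 with insulin and pancreatic polypeptide, 1 of 28 with insulin and somatostatin and 3 of 65 with glucagon and insulin. Among the last 3, the cell with Npy at 9.30 RPKM had only 586 RPKM summed over the grouping hormones. The highest insulin-only cell held 59.7% of that group's Npy and the 3 highest held 85.2%. Mean Npy was 0.0520 RPKM in glucagon-only cells and 21.3 in insulin-only cells, a log2 ratio of -4.40 with a counting interval of -4.48 to -4.11 for the 1 read. That interval holds the insulin-only mean fixed, so it understates the uncertainty of the ratio. In the rounded columns the ratio was -3.44, outside the interval. Over all columns with a pseudocount of 10 RPKM the ratio was -1.64, short of 4-fold. The insulin-only mean was 8.60 RPKM without its highest cell. Npy reached 1 RPKM in 13 of 226 full-precision and 4 of 169 rounded insulin-only cells.

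The insulin-only cells with Npy at 1 RPKM or more were set beside those below it, of which 1 had Npy above 0, at 0.813 RPKM. The 17 cells had median Pyy of 14.0 RPKM and median Ppy of 31.9, against 10.5 and 13.5 in the 378 below 1 RPKM. Th, which encodes the rate-limiting enzyme of catecholamine synthesis, reached 1 RPKM in 2 of the 17 and in 84 of the 378. Gad1, for GABA synthesis, reached it in 8 of 17 and 191 of 378. In the 2 insulin-only cells with at least 3 of 6 neuron markers, Npy was 46.4 and 89.2 RPKM. The part of neuronal RNA in the other Npy values was not tested.

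The receptors of the family were all but absent from these cells. Npy1r, Npy2r, Npy4r, Npy5r and Npy6r had mean values too low to be compared in any group. Npy1r reached 1 RPKM in 1 of 593 cells, at 20.5 RPKM, and the other 4 were at 0 in all 593. Whether deeper libraries would hold them was not tested.

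Pcsk1, of the enzymes that mature the peptides, was past 4-fold lower in every comparison. The convertases Pcsk1 and Pcsk2 cut the precursors, Cpe trims the cut ends and Pam amidates the tail. Pcsk1 had a mean of 0.590 RPKM in pancreatic polypeptide-only cells, 26.1 in somatostatin-only cells and 0.364 in glucagon-only cells, against 124 in insulin-only cells. Its log2 ratios over insulin-only cells were -6.29, -2.20 and -6.51, and Pcsk1 reached 1 RPKM in 2 of 11, 5 of 13 and 3 of 33 cells, against 368 of 395. In somatostatin-only cells its ratio was -1.02 in the rounded columns alone. Pcsk2, Cpe and Pam did not pass 4-fold in any group, with Pam at 138, 120 and 126 RPKM, against 102 in insulin-only cells. Over the 9 genes of the list, 0 were past 4-fold higher in any comparison, and 1, 2 and 1 were lower, beside 10.5%, 9.14% and 4.63% of all genes tested. The median log2 ratios of the list were 0.08, 0.24 and 0.48.

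Of the Dpp4 family of peptidase genes, Dpp4, Dpp8 and Dpp9 were each past 4-fold lower in 1 group only, with no shared pattern. Dpp4, a peptidase that clips the ends of peptide YY and neuropeptide Y, had a mean of 0.0167 RPKM in pancreatic polypeptide-only cells and 12.5 in insulin-only cells, a log2 ratio of -3.73. Its relative Dpp8 was 0.190 RPKM in pancreatic polypeptide-only cells and 5.64 in insulin-only cells, with a ratio of -2.48. Dpp9 was 1.58 RPKM in somatostatin-only cells and 15.4 in insulin-only cells, with a ratio of -2.67. In somatostatin-only cells Dpp4 had a ratio of -0.15 and Dpp8 of 1.75, and in pancreatic polypeptide-only cells Dpp9 had -0.49. Of the cleavage genes tested, 2 of 6, 1 of 5 and 0 of 5 were past 4-fold lower, beside the same 10.5%, 9.14% and 4.63% of all genes, and 0 were higher, with median log2 ratios of -0.45, -0.15 and -0.55. Of the Gi/o and potassium channel genes, 14, 12 and 13 were tested. Past 4-fold higher were 0, 0 and 1, beside 5.36%, 7.09% and 2.4% of all genes. Past 4-fold lower were 0, 1 and 0, beside 10.5%, 9.14% and 4.63%. The gene called in both directions was Gnai1, a Gi alpha subunit. It was higher in glucagon-only cells, at 29.5 RPKM against 3.41 in insulin-only cells, a log2 ratio of 2.79. Gnai1 was also past 4-fold lower in somatostatin-only cells, at a mean under 5 RPKM in both groups, and the list's median log2 ratios were 0.59, 0.14 and 0.74.

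Hhex, Etv1 and Irx2 were higher, and Pdx1 lower, in at least 1 group set against insulin-only cells. Hhex, which maintains delta cells, was 259 RPKM in somatostatin-only cells and 2.42 in insulin-only cells, a log2 ratio of 6.24. Etv1 was 58.0 and 43.8 RPKM in somatostatin-only and glucagon-only cells, against 3.27 in insulin-only cells, with ratios of 3.79 and 3.39. Isl1, a factor of all islet endocrine cells, was 301 RPKM in somatostatin-only cells and 68.3 in insulin-only cells, a ratio of 2.12. Pou3f4 was 12.7 RPKM in glucagon-only cells and 0.0184 in insulin-only cells, a ratio of 3.75, but reached 1 RPKM in 4 of the 33 glucagon-only cells. Irx2, a factor of alpha cells, had a ratio of 3.01 in glucagon-only cells. Pdx1, a beta cell factor, had ratios of -3.18 in pancreatic polypeptide-only and -3.33 in glucagon-only cells, and Nkx6-1 of -2.62 in glucagon-only cells. Insm1 had a ratio of -2.26 in pancreatic polypeptide-only cells, and -1.50 in the rounded columns alone. In glucagon-only cells, Irx2 had 1.93 and Pou3f4 a ratio of 0 in the rounded columns. In the full-precision columns Isl1 had 1.15 and Dpp9 -1.96 in somatostatin-only cells, and Gnai1 had 1.96 in glucagon-only cells. Of the factors tested, 1 of 16, 4 of 15 and 6 of 19 were past 4-fold higher and 2, 0 and 2 were lower in the 3 comparisons. Beside them, 5.36%, 7.09% and 2.4% of all genes were higher and 10.5%, 9.14% and 4.63% lower, and the counts in pancreatic polypeptide-only cells are near these shares. The list had median log2 ratios of -0.56, 0.44 and 0.22.

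No gene next to the members passed 4-fold in the direction of Pyy in all 3 comparisons. Of 20 neighbours (5 on each side of each member), 15 were in the table and 6 were tested in each comparison. Mpp2, near Ppy and Pyy, was 6.90 RPKM in pancreatic polypeptide-only cells and 6.11 in glucagon-only cells, against 0.703 in insulin-only cells, with log2 ratios of 2.21 and 2.06. Mpp6, near Npy, had 45.6 RPKM in pancreatic polypeptide-only cells and 0.0481 in glucagon-only cells, against 6.04 in insulin-only cells, with ratios of 2.73 and -2.75. Both rested on few cells, since Mpp2 reached 1 RPKM in 2 and Mpp6 in 3 of the 11 pancreatic polypeptide-only cells. Over the 6 genes, 2, 0 and 1 were higher, beside 5.36%, 7.09% and 2.4% of all genes tested. Lower were 1, 0 and 2, beside 10.5%, 9.14% and 4.63%, and the median log2 ratios were 0.02, -0.20 and -1.32. Without the highest cell of each group, 9 of the 30 calls of list members were lost. Those were Mpp2 (-0.38) and Mpp6 (0.10) in pancreatic polypeptide-only cells, Qpct (-1.77), Gnai1 (-1.81), Isl1 (1.81) and Fev (1.63) in somatostatin-only cells, and Pou3f4 (1.75), Irx1 (1.78) and Mpp2 (1.71) in glucagon-only cells.

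**Figure D4:**
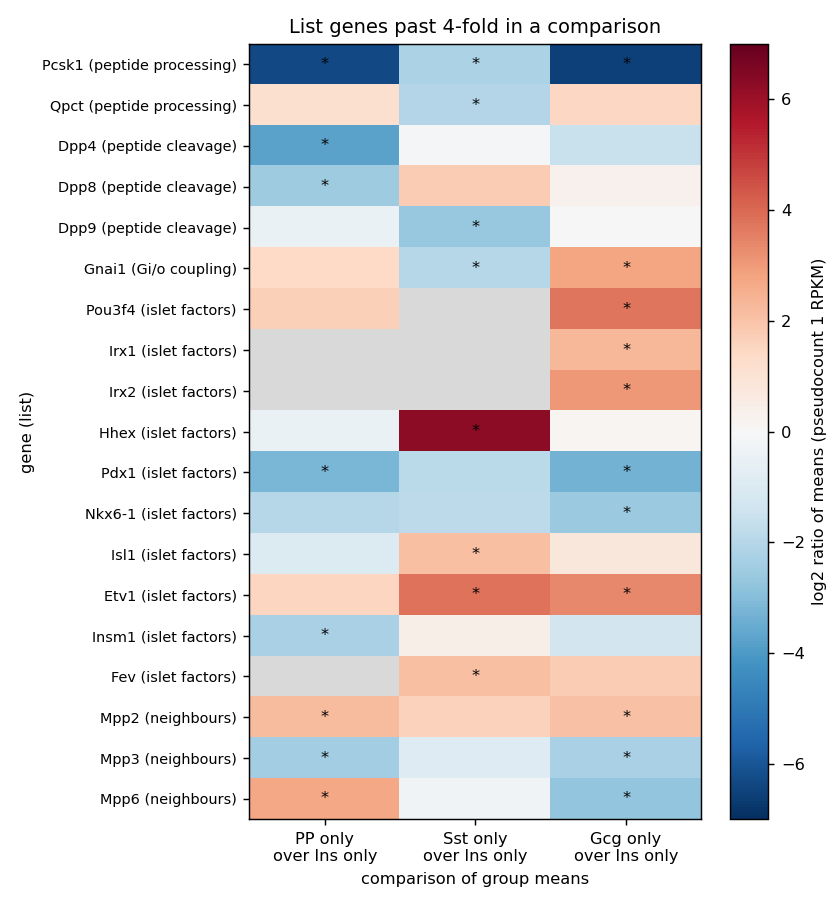
Colour gives the log2 ratio of group means over insulin-only cells for the list genes reported here that passed 4-fold in at least 1 comparison, marked with a star there, and grey marks a mean under 1 RPKM in both groups. Pcsk1 is the 1 gene starred in all 3 columns, at -6.29, -2.20 and -6.51, and Hhex has the highest value, 6.24 in somatostatin-only cells.

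The genes whose levels most resembled each member were found over the 452 single-hormone cells among 15233 genes, by Pearson's r of log2(RPKM + 1). The cells share a sample and differ in hormone group and depth. Pyy was most like Rbp4, which carries retinol, with r of 0.74 (0.74 and 0.75 in the column sets). Next were Gpx3, a peroxide-removing enzyme, at 0.67, the arginine-degrading enzyme gene Arg1 at 0.53, Dbpht2 at 0.49 and the leak potassium channel gene Kcnk3 at 0.48. Mean Rbp4 was 73.5 RPKM in pancreatic polypeptide-only, 2875 in somatostatin-only and 226 in glucagon-only cells, against 14.5 in insulin-only cells. Mean Gpx3 was 633, 1859 and 1284 RPKM in these groups, against 30.9 in insulin-only cells.

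Among the genes most like Ppy were the complement factor gene Cfi with r of 0.44, the tetraspanin gene Tspan8 at 0.43, Rbp4 at 0.42 and Gpx3 at 0.41. Mean Cfi was 119 RPKM in pancreatic polypeptide-only cells, against 0.357 in insulin-only cells. Pyy itself had a higher r with Ppy than any of these, at 0.73. Ppy is one of the grouping hormones, so these r over all single-hormone cells are partly set by the rule. Within the groups, r of Pyy with Ppy ran from -0.06 in somatostatin-only to 0.66 in pancreatic polypeptide-only cells. Npy had no close companion. Its highest r were 0.32 with the integrin gene Itgad, 0.26 with Gm6044, 0.24 with Zfp867, 0.22 with 6330403K07Rik and 0.21 with Mt3, and within insulin-only cells 0.32 with Itgad, 0.32 with the acetylcholinesterase gene Ache, 0.30 with Gm6044, 0.25 with Zfp867 and 0.24 with Mmd. Itgad reached 1 RPKM in 13 cells and Ache in 11, and with values so sparse these r are no finding.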

How the data were processed

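RNA was measured in 622 single cells of mouse islets, 1 library each, with cDNA from the SMARTer Ultra Low kit and Nextera XT libraries, per the labels' protocols. The authors deposited 1 table of RPKM values, 44448 genes named by Entrez ID. CASAVA 1.8.2, FastQC and GRCm38 (mm10) appear in the submitters' processing notes. The aligner, counter and annotation were not given in the sources used here. RPKM was used as deposited, with no count model. Symbols and positions came from RefSeq for GRCm38. Members of a family that share sequence can exchange reads, but treatment of reads with several matches is not stated.

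Whole reads, recovered from RPKM ratios between cells for 23125 of 23143 genes, served depth and thinning only. Of values under 100 reads, 99.6% in the rounded columns were whole within 0.05. The scale came from 37 mitochondrial genes. Cells passed with 1000 genes at 1 RPKM. Shares carry exact Clopper-Pearson 95% intervals, and a count of 0 allows 3 counts of the total. Group means were compared by log2((mean + 1)/(mean + 1)), and 4-fold was the size rule. The calculation of these ratios was also run on simulated data, which is no support for any ratio given here. With 1 sample, no p-value was computed.

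The members, lists and markers were chosen with earlier results of these data known. Named genes were, for each member, the 5 with the highest r among genes at 1 RPKM in at least 10 cells, and list members past 4-fold whose higher mean reached 5 RPKM. For Npy, the same was done within insulin-only cells. Some genes that this rule names are counted but not reported here by name. Lost calls in lists were named whatever their mean. Python 3.11.15, numpy 2.4.6, pandas 2.3.3, scipy 1.17.1 and matplotlib 3.10.9 were used.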

Additional observations from a re-analysis of the deposited data

Results flagged for a closer look

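The 29 cells below the gene filter, which entered no comparison, also held RNA of both genes. Ppy reached 1 RPKM in 27 of the 29 cells, 93.1%, and Pyy in 24 of the 29, 82.8%. Median Ppy was 5.36 RPKM and median Pyy 4.60 RPKM in these cells, which had a median of 417 genes. Npy was 0 in all 29.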

How the results depend on the processing

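Over 26 results and 267 alternatives, 239 stayed within the main interval, on the same side of 4-fold or within 1.5 times the main count. Direction was scored only for the log2 ratios of Pyy and Npy, with 33 and 8 alternatives, and none of these was reversed. All 33 alternatives of the Pyy ratios stayed past 4-fold, and all 39 of the dual-cell medians stayed within the main quartiles. The rest moved. Insulin-only shares of Pyy were 52.4% at 10 RPKM, 11.6% at 100 RPKM and 70.1% thinned. Insulin-only shares of Ppy were 58.7%, 19.5% and 68.0% under the same settings, and 86.7% in full-precision and 96.4% in rounded columns. Ppy at 100 RPKM was in 69.7% of glucagon-only cells. Npy fell to 0% of glucagon-only cells in full-precision columns, at 10 or 100 RPKM and thinned. Npy was in 2.37% of insulin-only cells in rounded columns and 1.77% at 100 RPKM. With a pseudocount of 10 the Npy ratio of glucagon-only cells was -1.64, no longer past 4-fold. Ratios of Npy were not computed where a group was listed at 0. List counts were 3 higher and 6 lower for pancreatic polypeptide-only cells, 4 and 4 for somatostatin-only and 8 and 5 for glucagon-only, with numbers tested given list by list above. Of all genes, 5.36%, 7.09% and 2.4% were higher and 10.5%, 9.14% and 4.63% lower. The pancreatic polypeptide-only and somatostatin-only counts are near these shares. With a pseudocount of 10 the list counts were 0 and 1, 2 and 0, and 2 and 1. In full-precision columns the higher counts were 5 for pancreatic polypeptide-only and 7 for somatostatin-only cells, and in rounded columns 4 for glucagon-only cells. Somatostatin-only lower counts were 2 with single-hormone at 80% and 2 with no filter on genes, and the glucagon-only higher count was 5 by medians. The cause of these moves was not tested. Leaving out cells with immune, endothelial or stellate markers, and the repeat of list ratios without the highest cell, were chosen after seeing the data, and the first left every value within the limits above. No paired analysis was possible because all cells form 1 group. With 11 and 13 cells in the smallest groups, shares are coarse, and cells of 1 sample say nothing of the spread between animals.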

Other observations

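Within the 395 insulin-only cells alone, the genes most like Pyy were Rbp4 (Pearson's r of log2(RPKM + 1) of 0.56), Sst (0.44), Gpx3 (0.37), Arg1 (0.32) and Ppfia2 (0.32), named after their values were seen. For Ppy they were Sst (0.31), Tspan8 (0.26), Gm13680 (0.24), Rbp4 (0.24) and Ppfia3 (0.22). Rbp4, Gpx3 and Arg1 were also among the 5 most like Pyy over all single-hormone cells. Rbp4 reached 1 RPKM in 124 of the 395 insulin-only cells.

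Mean Pyy in pancreatic polypeptide-only cells was 38208 RPKM in the 6 full-precision cells and 110774 in the 5 rounded cells. In insulin-only cells the 2 sets had means of 487 and 425 RPKM. In glucagon-only cells the order was the other way, with 14867 in 17 full-precision and 6382 in 16 rounded cells. Whether the sets mark separate runs, animals or processing is not known, and the part of the set in these values was not tested.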
